A study of Bos taurus with 32 samples.

Results

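Control bovine embryos were compared between the morula and the 9-16 cell stage. The comparison used 7 of the 32 libraries in the series, 3 of control morulae and 4 of control 9-16 cell embryos, and left out a morula library of control replicate 4 that held 83409 reads. Every library was made from total RNA of a pool of 15 Bos taurus embryos produced and cultured in vitro, and the control groups received none of the 3 cytokines FGF2, LIF and IGF1 that the treated groups of the series received as a mix (FLI). The 4 stages of the series, 4-6 cells, 9-16 cells, morula and blastocyst, each held FLI and control pools. RNA was amplified with the SMART-Seq v4 kit, which primes on poly(A) tails, so each level is taken as one of polyadenylated RNA. The labels do not say whether pools of a group came from separate cultures, and p-values thus cover the variation among pools alone. Each stage was collected and tabulated on its own, and a difference between stages cannot be told apart from one between collections.

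As background, the early cow embryo runs on RNA and protein that the oocyte stored. These maternal transcripts are translated and then destroyed in waves, while the embryo's own genome is switched on, in cattle mainly in the stages around 9-16 cells. Up to the morula the cells then form adherens and tight junctions and compact into a ball, and the outer cells begin to take on epithelial features that later give the trophectoderm and the fluid-filled blastocoel.

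Values are CPM (reads as a share of a library, per 1 M) on recovered reads, with joint TMM scaling of the 7 libraries, and library values are listed for morula replicates 1, 3 and 7 and for 9-16 cell replicates 10, 11, 12 and 13, in this order. Means carry the SD (n = 3 morula and 4 9-16 cell libraries). Differences are control morulae minus control 9-16 cell embryos on the log2(CPM + 1) scale with the SE, tested with limma and adjusted with the Benjamini-Hochberg method over all 13995 genes tested. Genes called at an adjusted p under 0.05 are said to have risen or fallen. CPM is a share of the library, so fewer cells of a type and less RNA per cell cannot be told apart.

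Depth was 44.2 to 95.6 M reads in the control morulae and 7.01 to 50.6 M in the control 9-16 cell embryos. Libraries within a stage were not alike. Across genes, 9-16 cell replicate 11 correlated at 0.866 to 0.902 with the other 9-16 cell libraries, which correlated at 0.963 to 0.980 with each other, and morula replicate 7 correlated at 0.936 and 0.957 with the other morulae, which correlated at 0.990. Libraries also differed in the balance of short and long genes. The median log2 deviation of genes under 1000 bases minus that of genes over 4000 bases was 1.90, 1.63 and 0.348 in the control morulae, against -1.21, -0.0459, -1.31 and -1.37 in the control 9-16 cell embryos. The stages did not overlap in it, and replicates 7 and 11 lay nearest to each other. Among genes under 1000 bases 58.3% were higher in morulae and 16.2% lower, while among genes over 4000 bases 21.1% were higher and 48.2% lower, and the median log2 differences were 1.48 and -0.76. Whether this balance comes with the embryos or the preparation was not tested, and values with the trend on gene length removed in each library are given beside the groups of short genes.

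**Figure D1:**
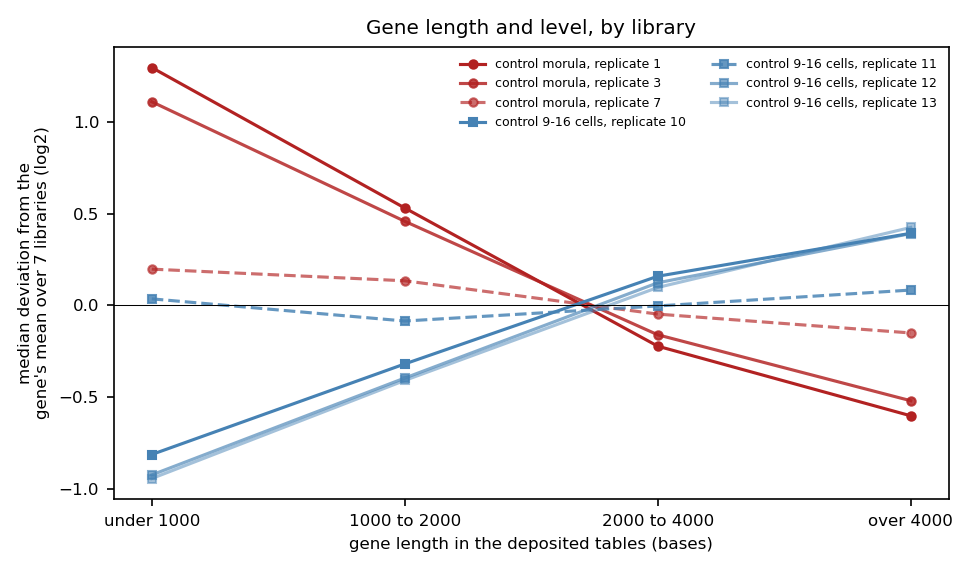
Median deviation from each gene's mean over the 7 libraries (log2, vertical axis) in 4 classes of gene length (bases, horizontal axis). Red lines are the 3 control morula libraries and blue lines the 4 control 9-16 cell libraries, with morula replicate 7 and 9-16 cell replicate 11 dashed; short genes run from 1.30 in morula replicate 1 to -0.946 in 9-16 cell replicate 13.

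The transcriptome was remade between the stages. Of 13995 genes tested, 5098 (36.4%) were higher and 4881 (34.9%) lower in control morulae than in control 9-16 cell embryos. At least 2-fold changes were seen in 4566 genes (32.6%) that rose and 4388 (31.4%) that fell, and at least 16-fold changes in 675 (4.82%) and 545 (3.89%). The median log2 difference over all genes was 0.065. Scaled by library size alone the median moved to -0.60 and 36.6% of the calls were rises, against 51.1% with TMM scaling, so changes under about 1 log2 unit depend on the scaling. The same scaling gave 3527 genes higher and 6109 lower. It also moved list counts, which are given beside many of the lists but not all. List counts stand against the 36.4% and 34.9% of all genes given above. Without 9-16 cell replicate 11 and morula replicate 7, 5793 genes were higher and 5480 lower.

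Fewer genes were detected in morulae. With all libraries thinned to 6985500 reads, 11842, 12303 and 12915 genes reached 1 CPM in control morulae, against 13457, 13495, 13487 and 13386 in control 9-16 cell embryos. Genes of the mitochondrial genome took 5.80%, 6.14% and 4.31% of reads in control morulae, against 1.65%, 2.82%, 1.41% and 0.874% in control 9-16 cell embryos. In both measures every morula library lay beyond every 9-16 cell library, and each had an exact two-sided permutation p of 0.0571, the smallest that 35 arrangements allow (adjusted p = 0.0762 over 8 measures). Entries named bta-mir-2887 took 0.0393%, 0.297% and 1.88% of thinned reads in control morulae, against 4.01%, 0.115%, 6.21% and 5.10% in control 9-16 cell embryos. The same permutation test gave p = 0.171 (adjusted p = 0.196). Whether these reads came from polyadenylated RNA was not tested.

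**Figure D2:**
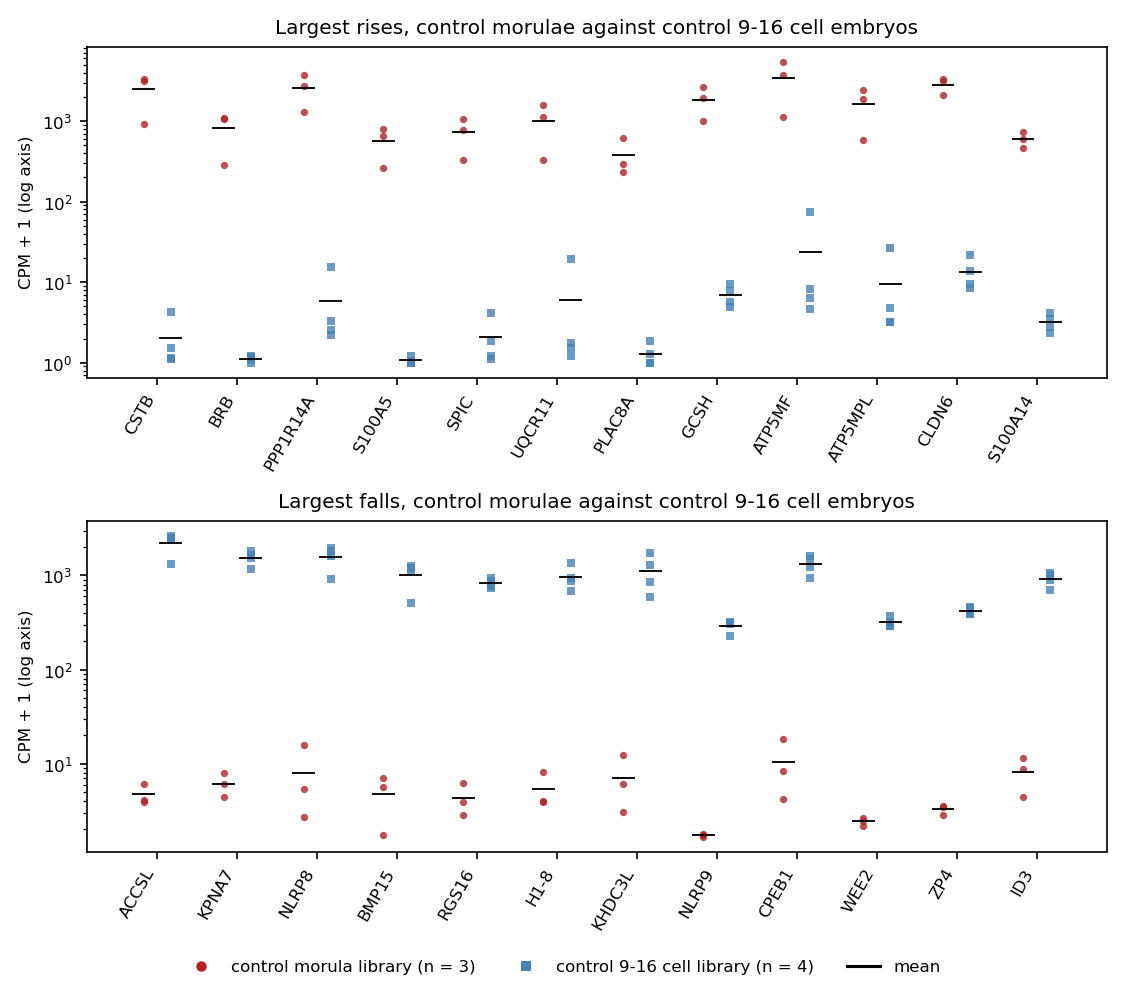
CPM + 1 on a log axis in each library for the 12 genes with the largest rise (upper panel) and the 12 with the largest fall (lower panel). Red circles are the 3 control morula libraries, blue squares the 4 control 9-16 cell libraries and black lines the group means; the groups do not overlap for any of the 24 genes, as the rule for choosing them required.

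Transcripts known from the oocyte were among the largest falls. Among oocyte growth factors, zona proteins and oocyte regulators, 12 of 13 tested fell and 1 rose (0 without any 1 library other than 9-16 cell replicate 13), with a median log2 difference of -5.42, against 0.065 over all genes. BMP15, a growth factor that the oocyte secretes to its follicle cells, had 0.759, 6.07 and 4.58 CPM in the control morulae, against 1083, 506, 1212 and 1265 CPM in the control 9-16 cell embryos (log2 difference -7.87 ± 0.53, adjusted p = 4.36e-06). GDF9, its partner in the same signal, had 0.994, 1.15 and 1.43 CPM in morulae, against 181, 199, 257 and 249.7 CPM in 9-16 cell embryos (log2 difference -6.65 ± 0.24, adjusted p = 7.12e-07). For both genes all 3 morula libraries lay near the floor of the scale and every 9-16 cell library lay far above them. ZP2 and ZP4, glycoproteins of the zona pellucida, averaged 3.76 ± 0.0783 CPM in control morulae and 360.2 ± 61.8 CPM in control 9-16 cell embryos for ZP2, and 2.31 ± 0.38 CPM in control morulae and 419 ± 39.7 CPM in control 9-16 cell embryos for ZP4. ZAR1, an RNA-binding protein of the oocyte, had 1.97 ± 0.76 CPM in control morulae and 239 ± 41.5 CPM in control 9-16 cell embryos (log2 difference -6.35 ± 0.27, adjusted p = 9.09e-07).

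The subcortical maternal complex is an assembly at the periphery of the oocyte and cleavage embryo that mammals need for the first divisions. Of its 6 genes tested, 5 fell and none rose, with a median log2 difference of -5.55. KHDC3L had 2.08, 5.06 and 11.2 CPM in the control morulae, against 855, 595, 1745 and 1295 CPM in the control 9-16 cell embryos (log2 difference -7.41 ± 0.52, adjusted p = 5.41e-06). NLRP5 averaged 1.54 ± 0.555 CPM in control morulae and 169 ± 67.3 CPM in control 9-16 cell embryos, PADI6 1.43 ± 0.536 CPM in morulae and 258 ± 85.9 CPM in 9-16 cell embryos, and NLRP2 0.361 ± 0.0741 CPM in morulae and 46.6 ± 11.3 CPM in 9-16 cell embryos. OOEP was the member that did not pass the test. It had 80.3, 67.9 and 24.4 CPM in morulae, against 68.9, 294, 61.3 and 57.9 CPM in 9-16 cell embryos (log2 difference -0.84, adjusted p = 0.259), and the groups overlapped, with 9-16 cell replicate 11 far above its group. OOEP passed as lower with the length trend removed, at -2.04 (adjusted p = 0.00231), and with library size alone (log2 difference -1.55, adjusted p = 0.0228), and without morula replicate 7 and 9-16 cell replicate 11 its difference was 0.26 (adjusted p = 0.249). NLRP8 and NLRP9, oocyte members of the same protein family that stood outside the list, also fell, with log2 differences of -7.94 and -7.37. NLRP genes are a family of close copies, so their counts are uncertain where reads fit more than 1 of them.

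Genes that control the storage, translation and removal of maternal mRNA fell with them. In that list 18 of 24 fell and 3 rose, and the median log2 difference was -2.71. BTG4, the adaptor that brings the deadenylase to maternal mRNA (ENSBTAG00000034346, chromosome 15, 21787553 to 21802341 in ARS-UCD1.2), had 18.1, 37.1 and 26.4 CPM in the control morulae, against 2439, 5781, 2056 and 2451 CPM in the control 9-16 cell embryos (log2 difference -6.74 ± 0.44, adjusted p = 4.08e-06). Replicate 11 held the most BTG4 of all 7 libraries and the groups were far apart. CPEB1, which holds and releases polyadenylation in the oocyte, had 9.37 ± 7.3 CPM in control morulae and 1320.0 ± 296 CPM in control 9-16 cell embryos (log2 difference -7.22 ± 0.48, adjusted p = 4.14e-06). EIF4E1B, an oocyte form of the cap-binding protein, and ZAR1L, a relative of ZAR1, fell, with log2 differences of -6.47 and -6.77. DAZL, a germ cell RNA-binding protein, was listed in the 9-16 cell table alone, at 51.9 ± 13.9 CPM of that table.

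Among meiotic regulators 10 of 15 fell and 2 rose (1 without any 1 of morula replicates 1, 3 or 7 or 9-16 cell replicates 12 or 13), with a median log2 difference of -3.22. MOS, the kinase that keeps the egg in metaphase arrest, had 1.92, 7.24 and 6.36 CPM in morulae, against 412, 640.4, 674 and 591 CPM in 9-16 cell embryos (log2 difference -6.67 ± 0.40, adjusted p = 2.57e-06). WEE2, the oocyte kinase that holds CDK1 inactive, averaged 1.43 ± 0.25 CPM in control morulae and 318 ± 39.3 CPM in control 9-16 cell embryos. FBXO43, an inhibitor of the anaphase-promoting complex in eggs, and CCNO, an atypical cyclin, fell, with log2 differences of -4.99 and -4.56.

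KPNA7, the importin alpha of oocytes and early embryos (ENSBTAG00000015737, chromosome 25, 37123013 to 37150162), had 3.4, 5.005 and 7.02 CPM in the control morulae, against 1159, 1523, 1799.9 and 1628 CPM in the control 9-16 cell embryos (log2 difference -7.98 ± 0.31, adjusted p = 7.16e-07). KPNA2, an importin alpha of dividing cells, had 297, 318 and 321 CPM in morulae, against 358, 335, 418 and 400.0 CPM in 9-16 cell embryos (log2 difference -0.27, adjusted p = 0.402), and passed only when library size alone was used (log2 difference -0.99, adjusted p = 0.0226). RAN, the GTPase that drives nuclear import, rose, at 1165 ± 403 CPM in morulae and 123 ± 21.3 CPM in 9-16 cell embryos. In the nuclear import list 6 of 19 rose and 4 fell, against 36.4% and 34.9% of all genes, and 3 rose and 7 fell with library size alone. H1-8, the linker histone of the oocyte, had 3.04, 7.18 and 2.86 CPM in morulae, against 868, 1352, 944 and 686 CPM in 9-16 cell embryos (log2 difference -7.54 ± 0.36, adjusted p = 1.12e-06). In the list of linker and replacement histones 5 of 9 rose, and H1-8 was the 1 that fell. H1-10 and H2AJ, a linker histone and an H2A variant of body cells, averaged 20.2 ± 7.96 CPM in control morulae and 1.92 ± 0.557 CPM in control 9-16 cell embryos for H1-10, and 80.8 ± 36.4 CPM in morulae and 1.07 ± 1.78 CPM in 9-16 cell embryos for H2AJ. Both are under 1000 bases long, and their log2 differences of 2.81 and 5.51 became 1.25 (adjusted p = 0.0311) and 3.95 (adjusted p = 8.46e-06) with the length trend removed.

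The largest fall of all named genes was in ACCSL, a relative of plant ACC synthase whose role in mammals is not established, with 3.13, 2.95 and 5.11 CPM in the control morulae, against 2515, 1313, 2475 and 2627 CPM in the control 9-16 cell embryos (log2 difference -8.86 ± 0.34, adjusted p = 7.17e-07). RGS16, which shortens signals of G proteins, fell, at 3.31 ± 1.68 CPM in morulae and 828 ± 83.9 CPM in 9-16 cell embryos. ID3, an inhibitor of basic helix-loop-helix factors, averaged 7.21 ± 3.49 CPM in control morulae and 916 ± 166 CPM in control 9-16 cell embryos (log2 difference -6.89 ± 0.36, adjusted p = 1.50e-06). Replicate 11 was the lowest of its group for ACCSL, yet stood far above every morula library.

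Of the genes with the largest rises, CSTB, SPIC, BRB, PLAC8A, S100A5 and UQCR11 each had at least 1 of the 4 9-16 cell libraries below the floor of 3 counts. CSTB, an inhibitor of cysteine proteases (ENSBTAG00000018189, chromosome 1, 143819489 to 143823793), had 3353, 3139 and 913 CPM in the control morulae, against 0.536, 3.32, 0.161 and 0.108 CPM in the control 9-16 cell embryos (log2 difference 10.28 ± 0.60, adjusted p = 2.39e-06). SPIC, an ETS-family transcription factor of early embryos and macrophages, had 1063, 772 and 331 CPM in morulae, against 0.0974, 3.11, 0.214 and 0.866 CPM in 9-16 cell embryos (log2 difference 8.50 ± 0.54, adjusted p = 3.37e-06). PLAC8A and S100A14, a placenta-associated protein and a calcium-binding protein of epithelia, averaged 378 ± 207 CPM in control morulae and 0.285 ± 0.4 CPM in control 9-16 cell embryos for PLAC8A, and 595 ± 132 CPM in morulae and 2.19 ± 0.781 CPM in 9-16 cell embryos for S100A14. S100A5, of the same calcium-binding family, averaged 567 ± 274 CPM in control morulae and 0.0699 ± 0.107 CPM in control 9-16 cell embryos, and BRB, a ribonuclease of the pancreatic family, 809.6 ± 453 CPM in morulae and 0.121 ± 0.102 CPM in 9-16 cell embryos. PPP1R14A, an inhibitor of myosin phosphatase, had 3742, 2752 and 1296 CPM in morulae, against 1.56, 14.4, 1.23 and 2.27 CPM in 9-16 cell embryos (log2 difference 9.17 ± 0.68, adjusted p = 6.62e-06). In CSTB, BRB, SPIC and PPP1R14A morula replicate 7 was the lowest morula and still far above all 9-16 cell libraries. For genes this low at the 9-16 cell stage the fold rests on the pseudocount of 1 CPM.

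Genes of genome activation went both ways. Of 15 tested, 7 fell and 4 rose, against 34.9% and 36.4% of all genes. A further 10 names of the list, KDM4E among them, are not analysed here. ZSCAN4 and KLF17, factors of the activation window, were lower in morulae. ZSCAN4 had 34.9, 28.8 and 35.1 CPM in morulae, against 79.5, 60.1, 68.6 and 90.4 CPM in 9-16 cell embryos (log2 difference -1.15 ± 0.25, adjusted p = 0.00268). KLF17 had 27.7, 43.0 and 59.5 CPM in morulae, against 619, 94.1, 325 and 521 CPM in 9-16 cell embryos (log2 difference -2.90 ± 0.62, adjusted p = 0.0027), with replicate 11 well below the other 9-16 cell libraries and above every morula. SP1, a general transcription factor, fell, at 30.9 ± 13.5 CPM in morulae and 255 ± 92.9 CPM in 9-16 cell embryos. EIF1AX, a translation initiation factor used as a marker of cattle genome activation, rose, at 1593 ± 861 CPM in morulae and 153 ± 144 CPM in 9-16 cell embryos, and TBX3, a T-box factor, averaged 427 ± 79.4 CPM in morulae and 55.4 ± 30.6 CPM in 9-16 cell embryos. DPPA3, a maternal factor that guards methylation in the zygote, had 458, 371 and 229 CPM in morulae, against 1096, 1253, 1143 and 1214 CPM in 9-16 cell embryos (log2 difference -1.79 ± 0.36, adjusted p = 0.00177).

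In the epiblast and pluripotency list 9 of 16 rose and 5 fell, against 36.4% and 34.9% of all genes, with a median log2 difference of 1.37, or 0.34 with the length trend removed, when 7 rose and 6 fell. POU5F1, the central POU-domain factor of the pluripotent state, had 1119, 1133 and 963 CPM in the control morulae, against 40.5, 51.9, 73.1 and 43.1 CPM in the control 9-16 cell embryos (log2 difference 4.37 ± 0.30, adjusted p = 4.53e-06). NANOG, which acts with it, had 19.8, 20.8 and 17.0 CPM in morulae, against 7.65, 12.1, 6.11 and 9.21 CPM in 9-16 cell embryos (log2 difference 1.08 ± 0.27, adjusted p = 0.00622). No morula library overlapped the 9-16 cell libraries in either gene, but the NANOG rise of about 2-fold missed the threshold with the length trend removed, at 0.56 (adjusted p = 0.0633), and with library size alone (log2 difference 0.42, adjusted p = 0.244). ESRRB and ZFP42, also genes of the pluripotent state, averaged 426 ± 119.8 CPM in control morulae and 18.4 ± 14.5 CPM in control 9-16 cell embryos for ESRRB, and 287 ± 35.6 CPM in morulae and 15.4 ± 7.85 CPM in 9-16 cell embryos for ZFP42. DPPA4 rose from the same list, at 130.2 ± 41.8 CPM in morulae and 10.8 ± 12.5 CPM in 9-16 cell embryos. SOX2 is not analysed here.

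Transcription factors of the trophectoderm split. Of 18 tested, 5 rose and 5 fell (5 and 7 with library size alone), against 36.4% and 34.9% of all genes. The other 8 did not pass, and the median log2 difference of the list was -0.13. TEAD4, the factor that reads Hippo signalling at the start of the lineage, had 139, 128 and 135 CPM in the control morulae, against 2.29, 2.94, 1.39 and 0.433 CPM in the control 9-16 cell embryos (log2 difference 5.71 ± 0.35, adjusted p = 3.03e-06). CDX2, the factor that maintains the lineage, had 16.4, 15.5 and 18.8 CPM in morulae, against 12.7, 18.6, 41.7 and 19.1 CPM in 9-16 cell embryos (log2 difference -0.29, adjusted p = 0.499), so that the groups overlapped, and the sign turned without 9-16 cell replicate 12 (log2 difference 0.027, adjusted p = 0.935). With the length trend removed CDX2 passed as lower, at -1.17 (adjusted p = 0.0327). GATA3 had 44.8, 38.7 and 52.4 CPM in morulae, against 22.6, 56.8, 24.2 and 17.8 CPM in 9-16 cell embryos (log2 difference 0.70, adjusted p = 0.133), and replicate 11 was the only 9-16 cell library above the morulae. Without replicate 11 the GATA3 difference was 1.07 (adjusted p = 0.00421). GATA2 fell, at 52.1 ± 22.6 CPM in morulae and 378 ± 155 CPM in 9-16 cell embryos. EOMES, ELF3 and TFAP2A, also factors of the trophectoderm or its derivatives, fell, with log2 differences of -6.06, -4.89 and -3.25. EOMES averaged 0.149 ± 0.144 CPM in control morulae and 76.8 ± 16.7 CPM in control 9-16 cell embryos.

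The hypoblast list, genes of the primitive endoderm and its basement membrane, held 12 of 16 genes that rose and 1 that fell (8 and 2 with library size alone). The falls numbered 2 without morula replicate 7 or 9-16 cell replicate 11, and the median log2 difference of the list was 2.52. Its summed level was 4315 to 4763 CPM in control morulae and 306 to 342 CPM in control 9-16 cell embryos. FN1, fibronectin of the matrix, had 849, 852 and 1764 CPM in the control morulae, against 8.14, 7.54, 13.1 and 10.7 CPM in the control 9-16 cell embryos (log2 difference 6.67 ± 0.34, adjusted p = 1.42e-06). GATA6, the first transcription factor of the lineage, had 105, 171 and 333 CPM in morulae, against 47.3, 7.65, 20 and 22.5 CPM in 9-16 cell embryos (log2 difference 3.10 ± 0.59, adjusted p = 0.00132), with morula replicate 7 the highest. CTSV, a cathepsin, and COL4A2, a collagen of basement membranes, averaged 2763 ± 639.8 CPM in control morulae and 66.8 ± 25.9 CPM in control 9-16 cell embryos for CTSV, and 31.8 ± 4.23 CPM in morulae and 1.28 ± 0.53 CPM in 9-16 cell embryos for COL4A2. In the list of collagens, laminins and integrins 5 of 22 rose and 8 fell (3 and 11 with library size alone). Over all genes the shares were 36.4% and 34.9%. ITGA5, the integrin chain that binds fibronectin, and SPARC, a matrix glycoprotein, rose, with log2 differences of 5.76 and 5.70, while COL1A1 and COL5A1, fibrillar collagens, fell, with -4.19 and -5.04.

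In the list of cell junctions and polarity, the machinery of compaction, 24 of 43 rose and 13 fell, against 36.4% and 34.9% of all genes, and 17 rose and 14 fell with library size alone. The median log2 difference was 1.37. CLDN6, a tight junction claudin of early epithelia (ENSBTAG00000045901, chromosome 25, 2433098 to 2436408), had 3304, 3104 and 2079 CPM in the control morulae, against 8.48, 21.0, 12.8 and 7.47 CPM in the control 9-16 cell embryos (log2 difference 7.79 ± 0.38, adjusted p = 1.18e-06). CLDN4, another claudin, averaged 161 ± 21.6 CPM in control morulae and 0.283 ± 0.131 CPM in control 9-16 cell embryos. GJB5, a connexin of gap junctions, rose, with a log2 difference of 7.09. CDH1, the E-cadherin of adherens junctions, was already present before: it had 467, 597 and 849 CPM in morulae, against 352, 79.9, 241 and 174 CPM in 9-16 cell embryos (log2 difference 1.73 ± 0.51, adjusted p = 0.0131). The CDH1 groups did not overlap, and the rise missed the threshold with library size alone (log2 difference 1.01, adjusted p = 0.155).

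Of the 5 keratins tested 4 rose. KRT8 and KRT18, the pair of simple epithelia, had 455, 250.4 and 759 CPM in morulae, against 2.34, 6.26, 5.58 and 3.47 CPM in 9-16 cell embryos for KRT8, and 483, 286 and 627 CPM in morulae, against 2.78, 1.85, 1.45 and 2.71 CPM in 9-16 cell embryos for KRT18 (adjusted p = 4.14e-06 and 1.11e-06). KRT7 averaged 58.6 ± 11.9 CPM in control morulae and 1.63 ± 0.678 CPM in control 9-16 cell embryos. KRT10, of the skin, had 35.4, 30.5 and 9.32 CPM in morulae, against 4.34, 20.5, 2.04 and 3.68 CPM in 9-16 cell embryos, with overlap, and its call (adjusted p = 0.0374) was lost without any 1 of morula replicates 1 or 3 or 9-16 cell replicates 10, 12 or 13 (adjusted p = 0.0824 to 0.119). Among the ion pumps and water channels that later fill the blastocoel, 7 of 15 rose and 6 fell, against 36.4% and 34.9% of all genes. AQP3, a channel for water and glycerol, had 283, 409.9 and 344 CPM in morulae, against 8.82, 9.4, 11.4 and 7.8 CPM in 9-16 cell embryos (log2 difference 5.06 ± 0.25, adjusted p = 1.17e-06). FXYD4, a small regulator of the sodium pump, averaged 202 ± 123 CPM in control morulae and 0.704 ± 0.181 CPM in control 9-16 cell embryos. The beta subunits of the sodium pump went opposite ways, ATP1B3 at 1066 ± 255 CPM in morulae and 47.3 ± 9.15 CPM in 9-16 cell embryos and ATP1B1 at 10.3 ± 4.12 CPM in morulae and 57.2 ± 4.17 CPM in 9-16 cell embryos.

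**Figure D3:**
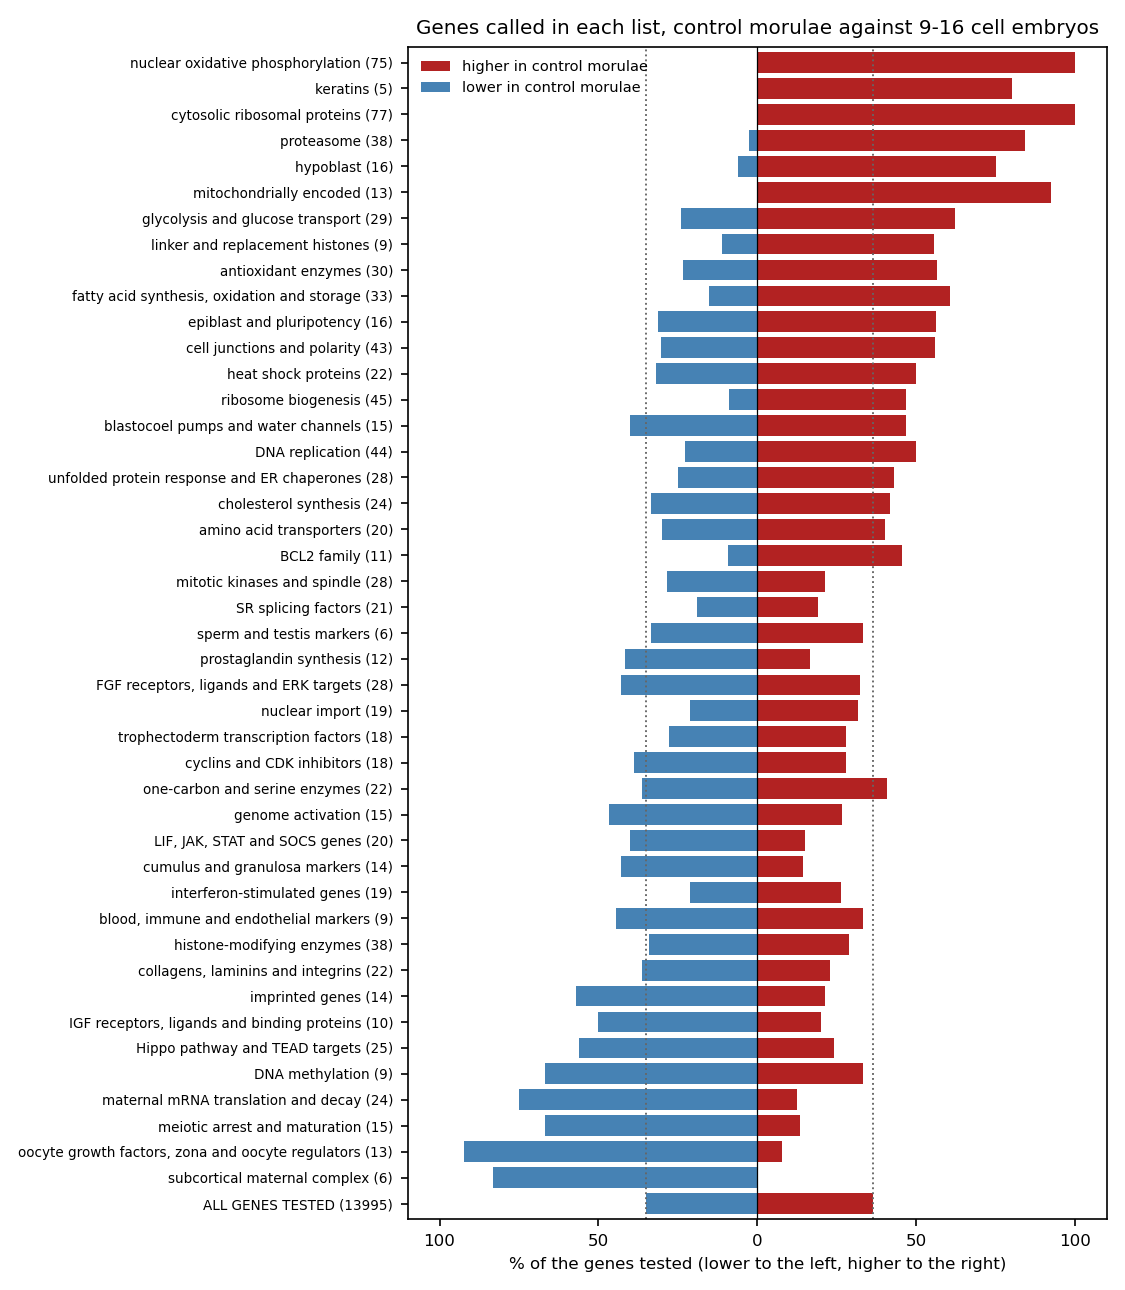
Percent of the genes tested in each list that were called higher (red, right) or lower (blue, left) in control morulae than in control 9-16 cell embryos, with the number tested in brackets, in order of the median difference. The bottom row and the dotted lines are all 13995 genes, at 36.4% higher and 34.9% lower; ribosomal protein and nuclear oxidative phosphorylation genes reach 100% higher.

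Of the Hippo pathway genes and TEAD targets 14 of 25 fell and 6 rose, against 34.9% and 36.4% of all genes, with a median log2 difference of -1.34. WWTR1, a coactivator of TEAD factors, rose, with 141, 147 and 141 CPM in morulae, against 8.38, 5.94, 5.84 and 4.33 CPM in 9-16 cell embryos (log2 difference 4.36 ± 0.26, adjusted p = 2.27e-06). AMOT, an angiomotin that holds such coactivators at the membrane, and VGLL4, a TEAD repressor, averaged 9.6 ± 5.07 CPM in control morulae and 111 ± 42.5 CPM in control 9-16 cell embryos for AMOT, and 21.8 ± 7.55 CPM in morulae and 399 ± 152 CPM in 9-16 cell embryos for VGLL4. AMOTL2, a relative of AMOT, rose, with a log2 difference of 2.75.

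Among FGF receptors, ligands and ERK targets 9 of 28 rose and 12 fell in these untreated embryos, near the 36.4% and 34.9% of all genes, and the rises numbered 6 to 8 with any 1 library left out. With library size alone 6 rose and 13 fell. FGFR4, an FGF receptor, had 82.3, 126 and 233 CPM in the control morulae, against 2.29, 0.264, 1.02 and 0.433 CPM in the control 9-16 cell embryos (log2 difference 6.18 ± 0.44, adjusted p = 5.62e-06). FGF16 and FGF18, ligands, and SPRY1, a feedback inhibitor of ERK signalling, fell, with log2 differences of -4.77, -3.84 and -3.83. FGF4, an epiblast ligand, was listed in the morula table alone, at 7.14 ± 2.90 CPM of that table, and FGF10 in the 9-16 cell table alone, at 5.18 ± 1.36 CPM.

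Of the genes of LIF, JAK, STAT and SOCS signalling 3 of 20 rose and 8 fell (3 and 11 with library size alone). Over all genes 36.4% rose and 34.9% fell. The 3 of this list that rose were IL6ST, IL6R and IL6. IL6ST, the signal chain shared by the receptors of LIF and IL6, had 53.3, 48.4 and 40.7 CPM in morulae, against 3.17, 3.41, 2.41 and 3.36 CPM in 9-16 cell embryos (log2 difference 3.57 ± 0.24, adjusted p = 3.88e-06). IL6R, the binding chain for IL6, averaged 112 ± 28.7 CPM in control morulae and 6.31 ± 2.71 CPM in control 9-16 cell embryos, and IL6 itself 60.6 ± 10.7 CPM in morulae and 0.812 ± 1.03 CPM in 9-16 cell embryos. STAT3, the transcription factor that LIF activates, and SOCS3, its feedback inhibitor, fell, with log2 differences of -2.25 and -2.28 (adjusted p = 0.00281 and 0.0124). PIM3, a kinase induced by STAT3, fell, at 13.3 ± 4.92 CPM in morulae and 303 ± 104 CPM in 9-16 cell embryos. LIF was listed in the 9-16 cell table alone, at a mean of 0.335 CPM. Of the IGF genes 5 of 10 fell and 2 rose, against 34.9% and 36.4% of all genes. IGF1R, the receptor for IGF1, had 6.52, 8.81 and 23.8 CPM in morulae, against 88.1, 39.4, 127 and 119.9 CPM in 9-16 cell embryos (log2 difference -2.82 ± 0.52, adjusted p = 0.00112), with morula replicate 7 the highest of the morulae and 9-16 cell replicate 11 the lowest of its stage. IGFBP2 and IGFBP6, secreted proteins that bind IGFs, rose, with log2 differences of 4.23 and 3.51, and IGFBP5 fell, with -2.03.

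All 77 genes tested for proteins of the cytosolic ribosome, and all 75 nuclear genes tested for oxidative phosphorylation, were higher in control morulae. The median log2 differences were 4.21 and 5.09, against 0.065 over all genes. Summed over the list, ribosomal protein genes held 67503 to 192261 CPM in control morulae and 5906 to 25864 CPM in control 9-16 cell embryos. RPL22, a protein of the large subunit, had 924, 729 and 284 CPM in morulae, against 2.19, 11.5, 2.14 and 1.73 CPM in 9-16 cell embryos (log2 difference 7.07 ± 0.60, adjusted p = 1.31e-05). UQCR11 and NDUFB10, small subunits of respiratory complexes III and I, had 1591, 1127 and 325 CPM in morulae, against 0.536, 18.4, 0.751 and 0.217 CPM in 9-16 cell embryos for UQCR11, and 929 ± 477 CPM in morulae and 5.78 ± 4.4 CPM in 9-16 cell embryos for NDUFB10. ATP5MF and ATP5MPL, subunits of the ATP synthase, averaged 3413 ± 2148 CPM in control morulae and 22.6 ± 34.4 CPM in control 9-16 cell embryos for ATP5MF, and 1643 ± 964 CPM in morulae and 8.47 ± 11.5 CPM in 9-16 cell embryos for ATP5MPL. In RPL22, UQCR11 and ATP5MF replicate 11 was the highest 9-16 cell library and replicate 7 the lowest morula.

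These are short genes, with a median length of 845 bases for the ribosomal and 1095 bases for the respiratory list, and the balance of short and long genes moved the same way between the stages; its part in the result was not tested beyond the values that follow. With the length trend removed 75 of 77 and 74 of 75 remained higher, and the medians were 3.05 and 4.07. Without any 1 library, 74 to 77 ribosomal and 74 to 75 respiratory genes rose. Of the 13 mitochondrially encoded genes tested, 12 rose, with a median log2 difference of 2.07 (1.11 with the length trend removed, 9 higher). With library size alone 9 rose. COX3, a subunit of cytochrome oxidase, averaged 18794 ± 8647 CPM in control morulae and 1793 ± 1309 CPM in control 9-16 cell embryos (log2 difference 3.55 ± 0.71, adjusted p = 0.00175). In the proteasome list 32 of 38 rose and 1 fell (0 to 2 with 1 library left out), at a median of 3.03 (2.45 with the trend removed, 31 higher), and PSMA2, a ring subunit, averaged 412 ± 155 CPM in control morulae and 7.26 ± 4.88 CPM in control 9-16 cell embryos. Ribosome biogenesis genes, which are longer, rose in 21 of 45 and fell in 4 (2 without morula replicate 3, 7 without morula replicate 7), and 14 rose and 12 fell with library size alone. NCL, the nucleolar protein nucleolin, averaged 2663 ± 1089 CPM in control morulae and 337 ± 274 CPM in control 9-16 cell embryos.

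Among those of glycolysis and glucose transport 18 of 29 rose and 7 fell, against 36.4% and 34.9% of all genes, with a median log2 difference of 1.76. With library size alone 13 rose and 7 fell. PDHB, a subunit of pyruvate dehydrogenase that feeds pyruvate to mitochondria, had 504, 373 and 292 CPM in morulae, against 3.51, 3.43, 1.55 and 0.433 CPM in 9-16 cell embryos (log2 difference 7.03 ± 0.43, adjusted p = 2.89e-06). LDHB and PGK1, enzymes of glycolysis, averaged 802 ± 143 CPM in control morulae and 43.5 ± 12.96 CPM in control 9-16 cell embryos for LDHB, and 333 ± 86.6 CPM in morulae and 19.9 ± 4.85 CPM in 9-16 cell embryos for PGK1. Among genes of fatty acid synthesis, oxidation and storage 20 of 33 rose and 5 fell (3 without morula replicate 1 or 3), and 13 rose and 8 fell with library size alone. PLIN3, a coat protein of lipid droplets, and ELOVL6, a fatty acid elongase, rose, with log2 differences of 5.25 and 3.46. Of the cholesterol synthesis genes 10 of 24 rose and 8 fell, near the shares over all genes, and 6 rose and 9 fell with library size alone. INSIG1, which restrains that pathway, fell, with a log2 difference of -3.56, and EBP, a sterol isomerase, rose, with 2.88.

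In the one-carbon list, 9 of 22 rose and 8 fell (5 without morula replicate 3 or 9-16 cell replicates 10 or 13), near the 36.4% and 34.9% of all genes, and 5 rose and 10 fell with library size alone. The 4 largest rises of the list were in GCSH, GNMT, GLDC and AMT. GCSH, the carrier protein of the glycine cleavage system, had 2629.7, 1909 and 988 CPM in morulae, against 8.38, 6.69, 4.61 and 3.9 CPM in 9-16 cell embryos (log2 difference 7.998 ± 0.39, adjusted p = 1.17e-06). GNMT, which methylates glycine, averaged 89.1 ± 40.4 CPM in control morulae and 0.848 ± 0.354 CPM in control 9-16 cell embryos. GLDC and AMT, the decarboxylase and aminomethyltransferase of the cleavage system, averaged 116 ± 41.2 CPM in control morulae and 7.15 ± 1.29 CPM in control 9-16 cell embryos for GLDC, and 270.2 ± 9.76 CPM in morulae and 30.3 ± 6.83 CPM in 9-16 cell embryos for AMT. Of the amino acid transporters 8 of 20 rose and 6 fell, near the shares over all genes (6 and 7 with library size alone). SLC7A5, the light chain of a carrier of large neutral amino acids, had 254, 253 and 269 CPM in morulae, against 3.8, 2.9, 2.57 and 2.82 CPM in 9-16 cell embryos (log2 difference 6.02 ± 0.22, adjusted p = 7.12e-07), whereas the cationic amino acid carriers SLC7A3 and SLC7A2 fell, with log2 differences of -5.65 and -5.02.

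Of 9 writers, readers and erasers of DNA methylation tested, 6 fell and 3 rose, against 34.9% and 36.4% of all genes. TET3, the dioxygenase that the oocyte supplies, had 0.217, 0.884 and 5.4 CPM in morulae, against 219, 65.2, 254 and 305 CPM in 9-16 cell embryos (log2 difference -6.23 ± 0.67, adjusted p = 4.93e-05). TET1, the family member of pluripotent cells, had 324, 268 and 205 CPM in morulae, against 15.7, 29.5, 12.6 and 12.5 CPM in 9-16 cell embryos (log2 difference 3.91 ± 0.35, adjusted p = 1.69e-05). UHRF1, which guides maintenance methylation to replicated DNA, averaged 27.5 ± 1.91 CPM in control morulae and 1223 ± 82.9 CPM in control 9-16 cell embryos, and its relative UHRF2 23.8 ± 1.26 CPM in morulae and 236 ± 69.3 CPM in 9-16 cell embryos. DNMT1, the maintenance methyltransferase, had 105, 96.7 and 65.2 CPM in morulae, against 200.2, 427, 169 and 185 CPM in 9-16 cell embryos (log2 difference -1.37 ± 0.38, adjusted p = 0.0106), and missed the threshold with the length trend removed, at -0.62 (adjusted p = 0.24). DNMT3B, a de novo methyltransferase, averaged 20.1 ± 16.4 CPM in morulae and 75.5 ± 21.5 CPM in 9-16 cell embryos. Among histone-modifying enzymes 11 of 38 rose and 13 fell, against 36.4% and 34.9% of all genes. The split was 4 and 18 with library size alone and turned to 17 and 7 with the length trend removed. The median length of these enzyme genes was 4717 bases. Without morula replicate 1 or 3, 8 of them fell. The falls of KMT2B, a histone methyltransferase, and SETDB1, another, kept their direction, at -2.03 (adjusted p = 0.00259) and -2.002 (adjusted p = 5.65e-05).

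Among cyclins and CDK inhibitors 5 of 18 rose and 7 fell (4 and 10 with library size alone), against 36.4% and 34.9% of all genes. CCND2, a D-type cyclin of the entry into S phase, had 207, 229.6 and 129 CPM in morulae, against 3.75, 5.56, 2.09 and 2.17 CPM in 9-16 cell embryos (log2 difference 5.46 ± 0.35, adjusted p = 3.45e-06), and CDK4, its kinase, averaged 134 ± 5.31 CPM in control morulae and 12.8 ± 8.25 CPM in control 9-16 cell embryos. CCNB3 fell, with a log2 difference of -3.45. CCNA1, a germ cell form of cyclin A, rose, with 58.4 ± 8.84 CPM in morulae and 11.3 ± 2.51 CPM in 9-16 cell embryos. CCNA2, the general form, averaged 198 ± 5.16 CPM in morulae and 427 ± 113 CPM in 9-16 cell embryos (log2 difference -1.07 ± 0.32, adjusted p = 0.0142), and its call was lost without 9-16 cell replicate 13 (adjusted p = 0.0517). In the list of mitotic kinases and spindle genes 6 of 28 rose and 8 fell, against 36.4% and 34.9% of all genes. The rises numbered 3 to 10 with 1 library left out, and 1 rose and 12 fell with library size alone. AURKA and AURKC, mitotic and meiotic kinases of that list, fell, with log2 differences of -2.94 and -2.77. AURKA had 741, 562 and 327 CPM in morulae, against 2409, 12488, 3003 and 2724 CPM in 9-16 cell embryos, with replicate 11 far above the others. DNA replication genes rose in 22 of 44 and fell in 10, against 36.4% and 34.9% of all genes, and 14 rose and 14 fell with library size alone. GINS1, a subunit of the replicative helicase, averaged 710.0 ± 259 CPM in control morulae and 31.3 ± 3.04 CPM in control 9-16 cell embryos.

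Antioxidant genes rose in 17 of 30 and fell in 7, against 36.4% and 34.9% of all genes. GPX1, a glutathione peroxidase, averaged 523 ± 190.4 CPM in control morulae and 9.88 ± 8.25 CPM in control 9-16 cell embryos. Metallothionein MT2A had 984, 829 and 230.5 CPM in morulae, against 0.585, 21.6, 0.429 and 1.41 CPM in 9-16 cell embryos (log2 difference 7.43 ± 0.95, adjusted p = 1.39e-04), and replicate 11 was the only 9-16 cell library above 2 CPM. Heat shock genes rose in 11 of 22 and fell in 7 (8 and 7 with library size alone), against the same shares of all genes. HSPD1, the mitochondrial chaperonin, averaged 488 ± 143 CPM in morulae and 30.3 ± 8.97 CPM in 9-16 cell embryos. Among genes of the unfolded protein response 12 of 28 rose and 7 fell, near the share of rises over all genes, and 7 rose and 10 fell with library size alone. ERN1 and EIF2AK3, sensors of misfolded protein in the endoplasmic reticulum, fell, with log2 differences of -4.81 and -2.61, and MANF, a secreted product of the response, rose, with 3.86. In the BCL2 family 5 of 11 rose and 1 fell (5 and 3 with library size alone), against 36.4% and 34.9% of all genes. BAD, BAK1 and BID, which promote cell death, rose, with log2 differences of 5.37, 3.39 and 2.53, and BCL2L2, which opposes it, fell, with -3.68.

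Markers of other cells that a pool could hold took small shares of the reads, with means of 0.0154% in control morulae and 0.0424% in control 9-16 cell embryos for cumulus and granulosa, 0.00800% and 0.00595% for sperm and testis, and 0.00915% and 0.0168% for blood, immune and endothelial markers, in the same order. The 14 cumulus and granulosa markers tested held 186 to 222 CPM in control morulae and 282 to 384 CPM in control 9-16 cell embryos, with 2 higher and 6 lower (3 lower without morula replicates 3 or 7 or 9-16 cell replicate 13). HAS2, a hyaluronan synthase of expanding cumulus, and STAR, a steroidogenic carrier, averaged 0.202 ± 0.107 CPM in control morulae and 66.0 ± 11.1 CPM in control 9-16 cell embryos for HAS2, and 9.18 ± 2.57 CPM in morulae and 148 ± 41.7 CPM in 9-16 cell embryos for STAR. The 6 sperm and testis markers tested held 64.6 to 152 CPM in control morulae and 43.2 to 50.8 CPM in control 9-16 cell embryos, with 2 higher and 2 lower. TNP2, a transition protein of spermatids, averaged 64.6 ± 40.8 CPM in morulae and 0.228 ± 0.0995 CPM in 9-16 cell embryos. LDHC, also of that list, fell, at 1.75 ± 1.08 CPM in morulae and 13.5 ± 1.57 CPM in 9-16 cell embryos. The 9 blood, immune and endothelial markers tested held 114 to 124 CPM in control morulae and 109 to 158 CPM in control 9-16 cell embryos, with 3 higher and 4 lower. PECAM1, an adhesion molecule of endothelium and platelets, rose, at 37.3 ± 6.62 CPM in morulae and 0.297 ± 0.242 CPM in 9-16 cell embryos. KDR, of the same list, fell, at 3.16 ± 0.62 CPM in morulae and 30.6 ± 3.33 CPM in 9-16 cell embryos. The leukocyte marker PTPRC was listed in the 9-16 cell table alone, at 0.253 ± 0.137 CPM. FSHR and LHCGR, the gonadotropin receptors of follicle cells, are not analysed here. In these shares of thinned reads each of the 3 lists separated the stages, at an exact permutation p of 0.0571 (adjusted p = 0.0762). The shares carry no TMM scaling. In the TMM-scaled sums above, the blood, immune and endothelial markers overlapped between the stages. The part of these markers in the results was not tested. Of the lists looked at for the stage labels, the maternal and keratin lists separated the stages without overlap. The subcortical maternal complex held 56.3 to 94.7 CPM in control morulae and 1309 to 2637 CPM in control 9-16 cell embryos, and the keratins 656 to 1463 CPM in control morulae and 32.01 to 60.6 CPM in control 9-16 cell embryos. The genome activation list overlapped, at 2877 to 3899 CPM in control morulae and 1780 to 3282 CPM in control 9-16 cell embryos. The summed level of the trophectoderm factors was lower in morulae, at 694 to 788 CPM, against 815 to 1203 CPM in control 9-16 cell embryos. That sum does not stand for each member, as 5 of 18 rose and 5 fell. GATA2 alone averaged 52.1 CPM in control morulae and 378 CPM in control 9-16 cell embryos.

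A gene listed in only 1 of the tables has no value at the other stage and was not tested. There were 1389 such genes in the morula table, with 0.195% to 0.249% of the reads of the 3 control morulae, and 1920 in the 9-16 cell table, with 0.343% to 0.447% of the reads of the 4 control 9-16 cell libraries. The most abundant of the morula table were GNG11, a G protein gamma subunit, at 131 ± 48.3 CPM, SLC39A2, a zinc importer, at 87.8 ± 1.88 CPM, GBP2 and GBP4, guanylate-binding proteins, at 45.8 ± 12.4 and 45.3 ± 9.94 CPM, and PGPEP1L at 41.0 ± 19.5 CPM. The most abundant of the 9-16 cell table were DAZL, then ZNF41 at 49.4 ± 24.2 CPM, NKX6-1, a homeobox factor, at 47.2 ± 32.01 CPM, FRZB, a secreted WNT antagonist, at 45.0 ± 5.33 CPM, and IZUMO1R, the egg receptor for sperm, at 32.5 ± 2.63 CPM. All 4 entries found for the interferon tau list stood in 1 table alone, and all were under 1 CPM.

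**Figure D4:**
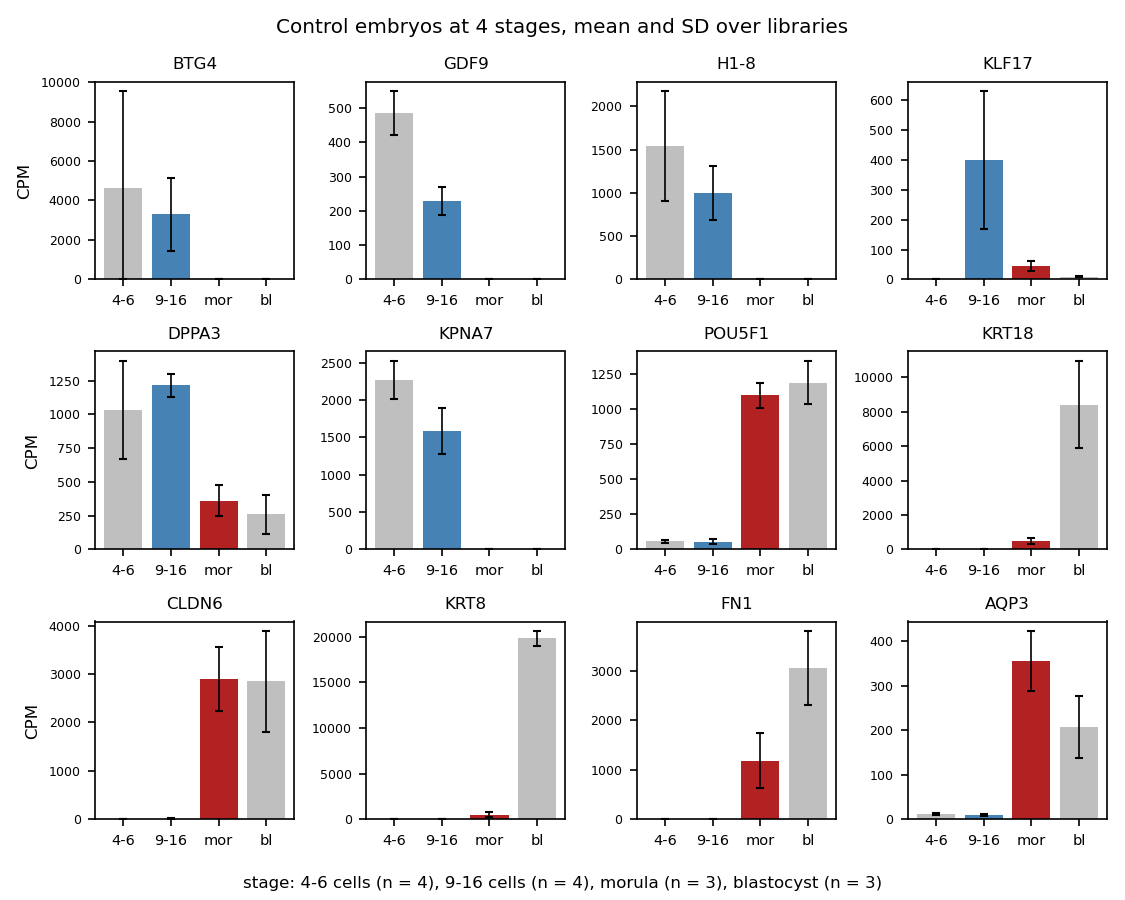
Mean CPM of 12 genes in control embryos at 4-6 cells, 9-16 cells, morula (mor) and blastocyst (bl), with n = 4, 4, 3 and 3 libraries and SD as error bars that end at 0, scaled jointly over the 14225 genes in all 4 tables. Blue and red bars are the 9-16 cell and morula libraries compared here; KLF17 is highest at 9-16 cells, and KRT8 and KRT18 are highest in blastocysts. Control morula replicate 4 (83409 reads) and control blastocyst replicate 6 (2995 reads) were left out.

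The neighbouring control stages place these changes in time. The comparisons with 4-6 cells and with blastocysts share libraries with the one described here, so values are set side by side with no test. In controls at 4-6 cells, 9-16 cells, morula and blastocyst GDF9 averaged 486 ± 64.2, 229 ± 41.1, 1.23 ± 0.238 and 0.323 ± 0.0612 CPM, and KPNA7 averaged 2269.6 ± 256, 1584 ± 308, 5.29 ± 1.91 and 0.552 ± 0.214 CPM. DPPA3 averaged 1034 ± 363, 1217 ± 85.4, 362 ± 115 and 259 ± 145 CPM.

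A second pattern was a peak at 9-16 cells. Over the same 4 stages KLF17 averaged 0.157 ± 0.129, 399.8 ± 232, 44.6 ± 16.7 and 9.5 ± 2.05 CPM, and ZSCAN4 0.721 ± 0.606, 77.0 ± 12.1, 33.8 ± 3.56 and 4.34 ± 1.62 CPM. EOMES averaged 0.652 ± 0.21, 79.3 ± 16.6, 0.153 ± 0.149 and 0.402 ± 0.269 CPM, and CDKN2C, an inhibitor of CDK4, 1.11 ± 0.245, 36.6 ± 14.2, 2.88 ± 0.244 and 0.838 ± 0.00937 CPM. KLF17, EOMES and CDKN2C were far lower both before and after, while ZSCAN4 kept a larger part of its level in morulae.

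Genes that rose differed in what they did after the morula. POU5F1 averaged 58.9 ± 11.6, 54.2 ± 16.7, 1099.6 ± 91.2 and 1192 ± 154 CPM, with little difference between morula and blastocyst beside the SDs. KRT8 averaged 6.86 ± 7.17, 4.59 ± 1.98, 501 ± 265 and 19806 ± 826 CPM, with far the highest level in blastocysts. CSTB averaged 2.92 ± 5.37, 1.08 ± 1.62, 2527 ± 1374 and 232 ± 162 CPM, and CCNA1 8.03 ± 2.37, 11.7 ± 2.56, 59.9 ± 8.5 and 4.88 ± 1.65 CPM, both highest in morulae. GATA2 dipped, at 437 ± 187, 392 ± 167, 53.6 ± 23.6 and 365 ± 87.1 CPM, and ELF3 did too, at 92.9 ± 3.72, 88.1 ± 40.5, 1.78 ± 0.538 and 77.1 ± 6.54 CPM.

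Embryos cultured with FLI went through the same interval in pools of their own. FLI morulae against FLI 9-16 cell embryos (4 libraries each) gave 5352 genes higher (38%) and 5561 lower (39.5%) of 14074 tested. Among the genes tested in both, 4596 of the 4958 that rose in controls (92.7%) also rose in FLI embryos and 2 fell, and 4593 of the 4851 that fell in controls (94.7%) also fell in FLI embryos and 1 rose. Of the 206 genes named by the rule, 204 were tested in FLI embryos, and all 204 had the same sign. The changes of KPNA7 were -8.32 in FLI embryos and -7.98 in controls, those of CLDN6 7.61 in FLI embryos and 7.79 in controls, and those of POU5F1 4.03 in FLI embryos and 4.37 in controls (log2 differences). The same sign did not always come with a like size. COX3 changed by 1.98 in FLI embryos and 3.55 in controls, and ATP5MF by 6.14 and 7.92. DPPA3 changed by -3.26 in FLI embryos and -1.79 in controls, and FGFR4 by 7.83 and 6.18. KRT10 changed by 0.48 in FLI embryos (limma adjusted p = 0.147) and 1.84 in controls.

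The difference between the FLI and the control change, tested as an interaction over 15 libraries, was called for 0 of 14099 genes in either direction (0% higher and 0% lower in FLI). With limma 1044 genes had an unadjusted p under 0.05 and the smallest adjusted p was 0.601. The edgeR quasi-likelihood test also called 0, and DESeq2 called 13. Without control morula replicate 7 limma called 61 genes, and without any other 1 of the 7 control libraries 0. Genes at an unadjusted limma p under 0.05 then numbered 2814 without morula replicate 7 and 2974 without 9-16 cell replicate 11. They numbered 380 to 822 without any other 1 control library. Without 9-16 cell replicate 11 the smallest adjusted p was 0.0731. The genes with the smallest p were S100A5, SLC44A4, A2M, CTSL and FXYD4. S100A5 had 95.6, 118, 192 and 179 CPM in FLI morulae and 848, 699 and 288 CPM in control morulae, an interaction of -2.13 ± 0.45 on the log2 scale, and the FLI morulae all lay below the control morulae. SLC44A4, a choline transporter, had 57.3, 47.5, 53.8 and 75.1 CPM in FLI morulae and 24.5, 41.1 and 28.7 CPM in control morulae, an interaction of 1.70 ± 0.36, with all FLI morulae above the controls. A2M, a protease inhibitor, had 53.6, 14.6, 16.4 and 14.6 CPM in FLI morulae and 4.49, 3.64 and 6.2 CPM in control morulae (2.23 ± 0.48). CTSL, a cathepsin, and FXYD4 had interactions of -1.47 ± 0.34 and -2.17 ± 0.50. All 5 had an adjusted p of 0.601.

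**Figure D5:**
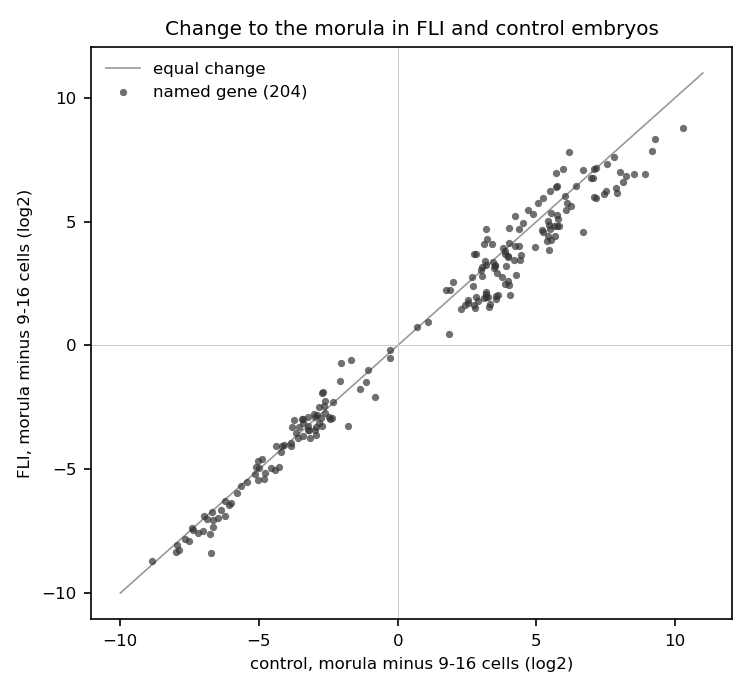
Log2 difference between morula and 9-16 cell embryos in FLI embryos (vertical axis) and in control embryos (horizontal axis) for the 204 named genes tested in both, with 1 point per gene and a line of equal change. All 204 points lie where both differences have the same sign.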

How the data were processed

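Each stage has a table of its own. FastQC, HISAT2, featureCounts and edgeR and the build ARS-UCD1.2 are named in the submitters' processing notes, with versions not given in the sources used here. The values deposited by the authors are a normalised signal, that is, reads over a scaled library size. All columns (100% of values, tolerance 0.001) held whole steps of their lowest value above 0, and dividing by that step gave whole reads. Names, lengths and coordinates are those of the tables (13925 of 16057 genes named, 46 names borne by more than 1 gene ID), and 0 gene IDs matched the RefSeq table.

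The 16057 genes in both tables were joined by gene ID. CPM with TMM factors (0.589 to 1.32) were tested with limma 3.58.1 (trend and robust options) in R 4.3.3 on log2(CPM + 1) for genes with a mean of at least 1 CPM. The edgeR 4.0.16 quasi-likelihood test on the recovered reads called 4885 genes higher and 4862 lower. DESeq2 1.42.0 and limma-voom were other alternatives. Scripts were tested on simulated data. No replicates were duplicates of each other.

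The members, the 45 gene lists and the naming rule were chosen with earlier results of these data known. Named are, of called genes with at least 10 CPM in the higher group and no overlap, the 12 that rose most and the 12 that fell most, up to 4 called members of each list (otherwise 2), some genes fixed by name whatever their result, the 5 most abundant genes of 1 table alone and the 5 smallest interaction p-values. Others (list members of 1 table alone, STAT3, SOCS3 and the stage values) were chosen after their values were seen. The at least 16-fold rule, the removal of the length trend (a lowess fit per library), the balance of short and long genes and the joint omission of 2 libraries were added after the data were seen. Library measures used exact permutation tests over 35 arrangements. Some genes that the naming rule covers are not reported here.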

Additional observations from a re-analysis of the deposited data

Results flagged for a closer look

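In the balance of short and long genes, 9-16 cell replicate 11, at -0.0459, lay far from the other 3 control 9-16 cell libraries by Dixon's test. Of 153 named genes looked at, 24 had 1 of the 4 control 9-16 cell libraries far from the other 3 by the same test, and in 22 of these it was replicate 11. The genes share the same 4 libraries and are not independent, so these counts were not set against chance.

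Replicate 11 was the high one, with 74.1 CPM of ATP5MF, 25.7 of ATP5MPL, 18.4 of UQCR11, 11.5 of RPL22, 22.2 of GPX1 and 21.6 of MT2A. It was also high for OOEP (294 CPM), BTG4 (5781), AURKA (12488) and DNMT1 (427). The same held for GATA3 (56.8), DPPA4 (29.4), CSTB (3.32), H2AJ (3.73), IFITM3 (19.6), IGFBP6 (4.20), KRT10 (20.5), PPP1R14A (14.4), SLC7A3 (83.7) and SNRPN (46.4). It was the low one for ACCSL (1313 CPM) and KMT2B (62.2). In replicate 10, CDK4 (25.0 CPM) and ZFP42 (27.2) were higher than in the other 3 libraries.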

How the results depend on the processing

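Counts of genes higher or lower stayed within 1.5 times of those reported under the other pseudocounts, filters, scalings and tests, and none of the calls turned except 8 with the length trend removed. The exception was the shallow morula library put in, with 2270 genes higher and 2249 at least 2-fold higher. Leaving out 1 library at a time gave 4353 to 5558 genes higher and 4216 to 5087 lower, 4225 to 4938 and 4095 to 4511 at least 2-fold, and 596 to 878 and 480 to 607 at least 16-fold. The 16-fold counts moved most: higher, 426 with a pseudocount of 4 CPM, 398 with library size alone, 1031 with DESeq2, 1097 with limma-voom, 417 with the shallow library, 441 with the length trend removed and 1026 without the 2 libraries that stand apart; lower, 217 with a pseudocount of 4 CPM, 845 with library size alone, 1139 with edgeR, 1138 with DESeq2 and 1167 with limma-voom. The cause was not tested. Among named genes, CDX2 ranged over -0.52 to 0.027 with 1 library left out and turned without 9-16 cell replicate 12, and OOEP turned without the 2 libraries (0.26). The interaction gave 13 genes with DESeq2 and 0 to 61 with 1 library left out. The control stages share no replicate number, so no block could be fitted for them. With the replicate number within a stage as a block, FLI and control paired, the interaction called 0 genes. With the shallow library put in, 13 of 43 junction genes and 8 of 33 fatty acid genes rose, against 24 and 20. Genes named in the text that then missed the threshold were TEAD4 (adjusted p = 0.0702), COL4A2 (0.0904), BAK1 (0.285), H1-10 (0.195), H2AJ (0.0536), EBP (0.0866), DDX58 (0.1995), IFIT3 (0.133), IGFBP5 (0.0520), CDH1 (0.0529), NANOG (0.0529) and KRT10 (0.0564), which also missed it with edgeR and limma-voom. KDR (adjusted p = 0.0707) and LDHC (0.258) also missed it with the shallow library put in. DNA replication and ribosome biogenesis then had 12 rises each. A depth of 7.01 M reads in 9-16 cell replicate 13 limits what can be seen of genes under 1 CPM.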

Other observations

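Over all genes 36.4% rose and 34.9% fell, and the counts of the lists below stand against these shares. Imprinted genes fell in 8 of 14 and rose in 3. PLAGL1, KCNQ1 and MEST fell, with log2 differences of -3.75, -4.26 and -3.22, and SNRPN rose, with 3.85. In the list of prostaglandin synthesis and response 5 of 12 fell and 2 rose. PTGES, a prostaglandin E synthase, averaged 59.5 ± 18.1 CPM in morulae and 0.33 ± 0.256 CPM in 9-16 cell embryos, and PTGER4, a receptor for prostaglandin E2, 0.121 ± 0.0774 CPM in morulae and 24.1 ± 8.91 CPM in 9-16 cell embryos. Interferon-stimulated genes rose in 5 of 19 and fell in 4 (2 and 7 with library size alone). IFITM3, a membrane protein of antiviral defence whose name is borne by 2 gene IDs, averaged in the higher of them 157 ± 92.4 CPM in morulae and 5.11 ± 9.65 CPM in 9-16 cell embryos, while IFIT3 and DDX58 fell, with log2 differences of -2.63 and -2.32. SR splicing factors rose in 4 of 21 (7 without 9-16 cell replicate 11) and fell in 4 (8 with library size alone), and SRSF7, one of them, averaged 795 ± 309 CPM in morulae and 111 ± 38.4 CPM in 9-16 cell embryos.

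On the X chromosome 192 of 470 genes rose (40.9%) and 148 fell (31.5%), with a median log2 difference of 0.39, or 0.12 with the length trend removed. Chromosome 29 had the highest share of rises among the autosomes, at 42.1%, and chromosome 28 the lowest, at 29.2%. No test was made of these shares.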
